A study of Mus musculus with 11 samples.

Results

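Cholesterol synthesis was followed in whole skin through 8 genes, namely Srebf2, Hmgcs1, Mvd, Fdps, Fdft1, Sqle, Lss and Cyp51. They were chosen by name from the 49315 genes of the deposited count table, with no threshold on any measured value. Earlier results of these data were known when they were chosen. The first encodes the transcription factor SREBP2 and the other 7 encode enzymes. The 11 mice were all Foxp3-DTR animals on a C57BL/6J background, which carry the diphtheria toxin (DT) receptor and GFP under the control of Foxp3, so that DT removes Foxp3-expressing regulatory T cells (Tregs). The 2 control mice received PBS (label PBS). ΔETreg mice (label EarlyDT, n = 3) received 2 doses of DT at 30 ng per g body weight, on postnatal days 6 and 8 (P6 and P8), and skin was taken at P9. ΔLTreg mice (label LateDT, n = 3) were dosed on P10 and P12 and ΔTreg mice (label FullDT, n = 3) on P6, P8, P10 and P12, and skin of both groups was taken at P13. Harvest was 24 h after the last dose. Mice of both sexes were used in the study and the sex of single mice is not used here. The study describes its comparisons with control as matched for age, while the labels give no harvest day for either control mouse. The same 2 control mice serve here in the comparisons with P9 and with P13 skin, so in these age and treatment cannot be told apart. Each library is 1 mouse, and mice are numbered within a group for naming only.

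Cholesterol is built from acetyl-CoA by a chain of enzymes in the cytosol and endoplasmic reticulum. The first steps make mevalonate, the next condense isoprene units into squalene, and the last fold squalene into lanosterol and trim it to cholesterol. When sterols in the endoplasmic reticulum run low, SREBP2 is released from its membrane anchor and raises transcription of nearly every enzyme in the chain as well as of its own gene. In skin, cholesterol is made by keratinocytes for the lipid layers of the stratum corneum and by sebocytes, and it is a building block of every dividing cell.

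Total counts per library ranged from 23377571 to 34159435 (median 29104226), mitochondrial transcripts took 1.13 to 1.89% of the counts, and for pairs of mice within a group the chi-square of a gene had a median of 1.01 to 3.55, above the 0.455 that counting alone would give, so no library was held to be a copy of another. For Foxp3 itself the control libraries held 20 and 14 reads, those of ΔETreg mice 10, 16 and 11, those of ΔLTreg mice 23, 13 and 13 and those of ΔTreg mice 9, 19 and 18, and it was not called in any comparison with control, so these counts do not check the depletion. Keratinocyte markers were high in every library, with 7475 to 10268 CPM (read counts scaled by library size and composition) summed over 7 basal genes. Libraries of ΔLTreg skin stood apart from the rest. Mouse 1 had 1671 CPM summed over 7 hair matrix and hair shaft genes, where the other 10 libraries had 3747 to 4831, and 6 skeletal muscle genes summed to 3694 CPM in mouse 1 and 4641 in mouse 3 against 1097 to 2094 in the other 9 libraries. In mouse 3, the 6 dermal fibroblast genes summed to 8358 CPM, the lowest of the 11 libraries. For the members, the other enzymes of the pathway and the lists of lipid genes nearest to it, counts of called genes in ΔTreg against ΔLTreg skin are therefore also given without mouse 1 and without mouse 3. The members were well covered, with 860 counts for the lowest member in any library (Mvd in ΔTreg mouse 1), and all 8 passed the expression filter that left 18375 genes.

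The sequences just upstream of the members are shown because SREBP2 is known to act at such sites, together with the cofactor NF-Y, which binds CCAAT boxes, and with Sp1, which binds GC boxes. RefSeq promoter windows (GRCm38.p6) were held for 5 of the 8 genes, those of Srebf2, Hmgcs1, Mvd, Lss and Cyp51. Fdps, Fdft1 and Sqle are named only. The 250 bases upstream of the RefSeq start are printed for Srebf2 (chr15:82147019-82147268, plus strand), Hmgcs1 (chr13:119690101-119690350, plus strand), Mvd (chr8:122443423-122443672, minus strand) and Lss (chr10:76531355-76531604, plus strand), 5′ to 3′ on the strand of the gene, with capitals marking matches on either strand to CCAAT or to the sterol response element patterns TCACNCCAC and TCACNNCA.
Srebf2: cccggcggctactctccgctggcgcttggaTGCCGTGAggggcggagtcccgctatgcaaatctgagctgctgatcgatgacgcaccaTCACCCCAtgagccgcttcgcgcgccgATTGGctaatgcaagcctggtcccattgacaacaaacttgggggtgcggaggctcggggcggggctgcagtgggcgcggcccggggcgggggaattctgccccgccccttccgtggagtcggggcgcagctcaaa
Hmgcs1: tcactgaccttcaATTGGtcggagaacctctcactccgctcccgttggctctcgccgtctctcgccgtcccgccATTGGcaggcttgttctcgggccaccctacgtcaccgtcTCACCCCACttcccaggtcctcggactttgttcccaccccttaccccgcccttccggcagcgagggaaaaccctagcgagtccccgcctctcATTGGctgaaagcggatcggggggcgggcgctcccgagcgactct
Mvd: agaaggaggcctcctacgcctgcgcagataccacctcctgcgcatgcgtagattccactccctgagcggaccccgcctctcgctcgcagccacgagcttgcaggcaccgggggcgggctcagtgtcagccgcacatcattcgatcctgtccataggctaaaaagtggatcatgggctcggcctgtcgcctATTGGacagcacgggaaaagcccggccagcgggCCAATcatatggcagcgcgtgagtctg
Lss: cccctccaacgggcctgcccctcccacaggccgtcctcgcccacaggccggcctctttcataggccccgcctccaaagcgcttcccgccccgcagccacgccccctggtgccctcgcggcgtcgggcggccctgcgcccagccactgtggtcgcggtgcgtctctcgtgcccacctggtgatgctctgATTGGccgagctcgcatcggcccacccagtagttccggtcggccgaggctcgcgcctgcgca

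The pattern TCACNCCAC was found in 1 of the 5 windows, that of Hmgcs1, 137 bases upstream of the start, and in 1.04% of all 27025 mouse windows of the same length. The looser TCACNNCA, which contains it and was chosen after the sequences were seen, was found in 3 of 5, those of Srebf2, Hmgcs1 and Cyp51, and in 11.3% of all windows. CCAAT was present in 5 of 5 windows against 34.5% of all, and GGGCGG, the GC box, in 5 of 5 against 32.9%. Both strands were searched. Relative to the RefSeq start, the start in GENCODE M21 lies at -88 bases for Srebf2, -49 for Cyp51 and -17 for Lss. By that annotation these 3 windows end within the gene. It lies at 28 bases for Hmgcs1 and 0 for Mvd. The windows of Mvd and Lss held neither sterol response element pattern, which says only that those letters are not in these 250 bases.

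Levels between genes can be compared only per kb of exon. By this measure Hmgcs1, the cytosolic HMG-CoA synthase, was the most abundant member, with 76.4 ± 7.41 CPM per kb (SD, n = 11 mice), followed by Srebf2 with 40.3 ± 2.09. Sqle (29.4 ± 2.46), Cyp51 (28.0 ± 3.17) and Mvd (26.2 ± 4.24) followed with ranges over mice that overlapped, and so did Fdft1 (19.8 ± 2.21) and Fdps (18.5 ± 2.44). Lss was lowest at 9.95 ± 1.29 CPM per kb, and its divisor of 10787 bases of annotated exon is the longest of the 8, against 1859 for Mvd. Because the sources do not say whether counting used strand, reads in the 774 exon bases that Fdft1 shares with Ctsb, or the 166 that Cyp51 shares with Akap9, both on the opposite strand, cannot be assigned with certainty. The same holds for the 557 bases of Hmgcs1 and the 381 of Lss that overlap antisense genes. Fdps shares 1124 exon bases with the predicted gene Gm43738 on its own strand.

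Srebf2 (chromosome 15, 82147181 to 82205379 in GRCm38, plus strand) was the steadiest member. Its normalised level was 286 and 320.1 CPM in control, 291, 284 and 299.9 in ΔETreg, 268, 279 and 301 in ΔLTreg mice and 273, 283 and 302 in ΔTreg skin. Every pair of groups overlapped, and the highest of the 11 mice was 1.19 times the lowest.

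The first enzymes act before and around mevalonate. Hmgcs1 (chromosome 13, 119690379 to 119708260, plus strand), which joins acetyl-CoA to acetoacetyl-CoA, had 329.7 and 367 CPM in control, 360.2, 356 and 368 in ΔETreg, 317, 385 and 417 in ΔLTreg mice and 297, 325 and 338 in ΔTreg skin. ΔTreg values lay under those of ΔETreg and overlapped with ΔLTreg and control. Mvd (chromosome 8, 122433601 to 122443422, minus strand), the decarboxylase that turns mevalonate pyrophosphate into isopentenyl pyrophosphate, had 40.0 and 53.0 CPM in control, 53.0, 50.6 and 52.3 in ΔETreg, 51.1, 59.6 and 58.2 in ΔLTreg mice and 36.9, 40.0 and 40.9 in ΔTreg skin. The 3 ΔTreg mice lay under all 6 mice of the shorter schedules, and control mouse 1 was as low as they were. Fdps (chromosome 3, 89093588 to 89101959, minus strand) makes farnesyl pyrophosphate, the branch point towards sterols and prenylated proteins. It had 68.4 and 81.5 CPM in control, 77.7, 76.3 and 82.8 in ΔETreg, 72.7, 93.8 and 95.8 in ΔLTreg mice and 62.6, 70.2 and 72.9 in ΔTreg skin. Its lowest ΔLTreg value, from mouse 1, was just under the highest ΔTreg value.

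The later members commit the chain to sterols. Fdft1 (chromosome 14, 63145150 to 63179578, minus strand), squalene synthase, had 74.0 and 93.9 CPM in control, 88.5, 84.3 and 87.1 in ΔETreg, 76.7, 91.2 and 98.1 in ΔLTreg mice and 68.3, 74.5 and 82.9 in ΔTreg skin. Sqle (chromosome 15, 59315077 to 59331192, plus strand), the oxygen-dependent squalene epoxidase, had 149 and 179.7 CPM in control, 171, 162 and 169 in ΔETreg, 145, 169 and 187 in ΔLTreg mice and 145, 156 and 161 in ΔTreg skin. For both genes ΔTreg mice overlapped with ΔLTreg and control mice and lay under ΔETreg mice. Lss (chromosome 10, 76531588 to 76557138, plus strand), which closes the sterol rings to give lanosterol, had 98.1 and 113 CPM in control, 116, 112 and 114 in ΔETreg, 97.8, 121 and 131 in ΔLTreg mice and 82.5, 96.8 and 97.8 in ΔTreg skin. Its highest ΔTreg value and its lowest ΔLTreg value were nearly equal. Cyp51 (chromosome 5, 4081145 to 4104746, minus strand), the lanosterol demethylase, had 110.2 and 141 CPM in control, 129.6, 122 and 123 in ΔETreg, 111, 136 and 148 in ΔLTreg mice and 103, 115 and 119.8 in ΔTreg skin. ΔTreg values of Cyp51 lay under those of ΔETreg and overlapped with the other groups.

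**Figure D1:**
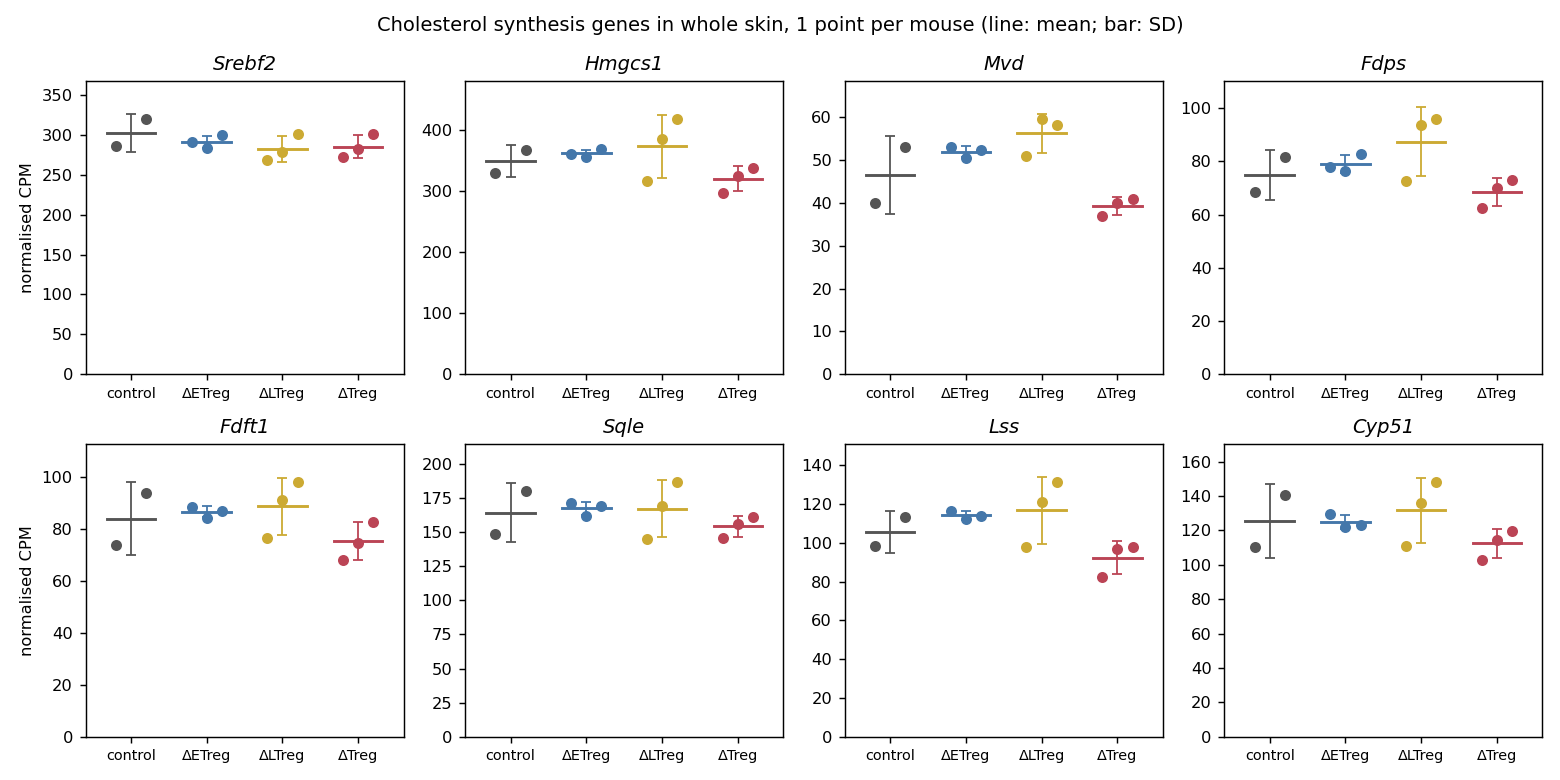
Normalised level (CPM, from 0) of the 8 members in control, ΔETreg, ΔLTreg and ΔTreg skin, with 1 point per mouse, a line at the group mean and bars of 1 SD (n = 2 control mice and 3 in each other group). The ΔTreg points of the 7 enzymes lie under the ΔETreg points, Mvd also lies under all ΔLTreg points, and the Srebf2 points of all groups overlap.

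ΔTreg and ΔLTreg skin were taken at the same age and differ in whether DT was also given on P6 and P8. Of the members, 3 enzymes were lower in ΔTreg skin. Mvd fell by 30.2% (56.3 ± 4.56 CPM in ΔLTreg mice and 39.3 ± 2.11 in ΔTreg, SD, n = 3 each), Fdps fell by 21.6% (87.5 ± 12.8 and 68.5 ± 5.36 CPM) and Lss fell by 20.8% (117 ± 17.2 and 92.4 ± 8.57 CPM). All 7 enzymes had estimates under 0, with a median log2 fold change of -0.24, and Srebf2 had 0.01 (95% interval -0.13 to 0.16).

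The log2 fold change of Mvd was -0.52 (standard error 0.0946, 95% interval -0.73 to -0.31) with an adjusted p of 0.00331 in the quasi-likelihood test of edgeR, adjusted by Benjamini-Hochberg over 18375 genes. Fdps had -0.35 (standard error 0.105, adjusted p = 0.0421 in the same edgeR test) and Lss -0.34 (standard error 0.103, adjusted p = 0.0465 in the same test). The 3 called members compare with 16.8% of all genes tested that were called in this comparison, and 6.11% that were called lower. The estimates of the enzymes that did not pass were -0.22 for Hmgcs1 (edgeR adjusted p = 0.134), -0.24 for Fdft1 (0.159), -0.23 for Cyp51 (0.191) and -0.12 for Sqle (0.437), and their 95% intervals reached from -0.47 to 0.09. Mvd was the 1 member whose groups did not overlap, which was so, in the lower direction, for 16.7% of all genes tested.

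These calls depended on single mice to different degrees. Mvd was called with each of the 11 mice left out and with each of 6 other settings. Fdps was called with 3 of the 11 mice left out and under 5 of the 6 settings, and Lss with 3 of 11 and under 2 of 6. ΔLTreg mouse 1, the library with few hair transcripts, was also the lowest of its group for 8 of 8 members, so leaving it out widens the difference. Without it 6 members were called lower, where 16.1% of all genes tested were called. The log2 fold changes were then -0.59 for Mvd (edgeR adjusted p = 0.00268), -0.47 for Fdps (0.00326), -0.45 for Lss (0.00418), -0.33 for Hmgcs1 (0.00953), -0.34 for Cyp51 (0.0358) and -0.34 for Fdft1 (0.0437). Sqle had -0.21 (edgeR adjusted p = 0.0990) and Srebf2 -0.03 (0.819). Mvd was the 1 member called without ΔLTreg mouse 2 or 3, without any 1 of the 3 ΔTreg mice, and without any 1 of the 3 ΔETreg mice, which enter this comparison through the shared estimate of the spread. ΔLTreg mouse 3 was the highest of its group for 7 of 8 members. Without it, where 15.6% of all genes were called, the log2 fold changes were -0.28 for Fdps, -0.24 for Lss, -0.15 for Fdft1, -0.13 for Hmgcs1 and -0.13 for Cyp51. Without control mouse 1, and again without control mouse 2, Mvd, Fdps and Lss were called. The adjusted p in these leave-one-out edgeR fits reached 0.0184 for Mvd, 0.148 for Fdps and 0.163 for Lss.

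The comparison of ΔTreg with ΔETreg skin spans both the longer DT schedule and the step from P9 to P13, which cannot be told apart here. Mvd was lower in ΔTreg skin, where it fell by 24.4% from 52.0 ± 1.28 to 39.3 ± 2.11 CPM (SD, n = 3 each), a log2 fold change of -0.40 (standard error 0.0949, edgeR adjusted p = 0.0102). The other 6 enzymes had estimates between -0.30 and -0.12, led by Lss (-0.30, standard error 0.103, edgeR adjusted p = 0.0554), and Srebf2 had -0.03. For all 7 enzymes the highest ΔTreg mouse was under the lowest ΔETreg mouse, which was so for 21.7% of all genes tested. Of all genes tested 23.1% were called in this comparison and 9.81% were called lower. The 3 ΔETreg mice were close to each other, with coefficients of variation of 1.78 to 4.33% for the 8 members. In the DESeq2 Wald test on these 2 groups, and in edgeR on these 2 groups alone, 5 members were called lower (Hmgcs1, Mvd, Fdps, Fdft1 and Lss), where 21.3% of all genes tested were called by the first and 30.7% by the second.

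Against control, no schedule gave a called member. In ΔTreg skin all 8 estimates were under 0 and lay between -0.24 for Mvd (95% interval -0.47 to -0.01, edgeR adjusted p = 0.132) and -0.09, with a median of -0.14. Of the 8 members 0 passed in edgeR, 1 had an unadjusted p under 0.05 and 0 passed in DESeq2, where edgeR called 21.5% of all genes tested. In ΔLTreg skin the 7 enzymes had estimates from 0.02 for Sqle to 0.28 for Mvd (95% interval 0.04 to 0.51, edgeR adjusted p = 0.170) and Srebf2 had -0.10. Again 0 passed in edgeR and 0 in DESeq2 and 1 had an unadjusted p under 0.05, against 4.55% of all genes called. In ΔETreg skin the estimates lay between -0.06 and 0.16, 0 members had an unadjusted p under 0.05, and 0 passed in edgeR or DESeq2. There 0.00544% of all genes were called, and the 95% intervals of the 8 members lay within -0.28 to 0.40. These 3 comparisons share the same 2 control mice.

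Both control mice weighed heavily in these comparisons. Control mouse 2 exceeded control mouse 1 by a factor of 1.11 for Hmgcs1 up to 1.32 for Mvd. Without control mouse 1, Mvd had a log2 fold change of -0.43 in ΔTreg skin (edgeR adjusted p = 0.0106) and 0.09 in ΔLTreg skin (0.693). Without control mouse 2, it had -0.03 in ΔTreg skin (edgeR adjusted p = 0.882) and 0.49 in ΔLTreg skin (0.0346). The direction for Fdft1, Sqle and Cyp51 in ΔTreg skin also turned without control mouse 2, to 0.02, 0.04 and 0.02.

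Between ΔLTreg and ΔETreg skin, which differ in age as well as in the days of dosing, the member estimates lay between -0.04 for Srebf2 and 0.15 for Fdps. Of the 8 members 0 were called by edgeR or DESeq2 and 0 had an unadjusted p under 0.05, against 6.38% of all genes called by edgeR, and the 95% intervals lay within -0.20 to 0.38. Without ΔLTreg mouse 1 the estimate for Fdps was 0.27 (edgeR adjusted p = 0.0845) and that for Mvd 0.18 (0.297).

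**Figure D2:**
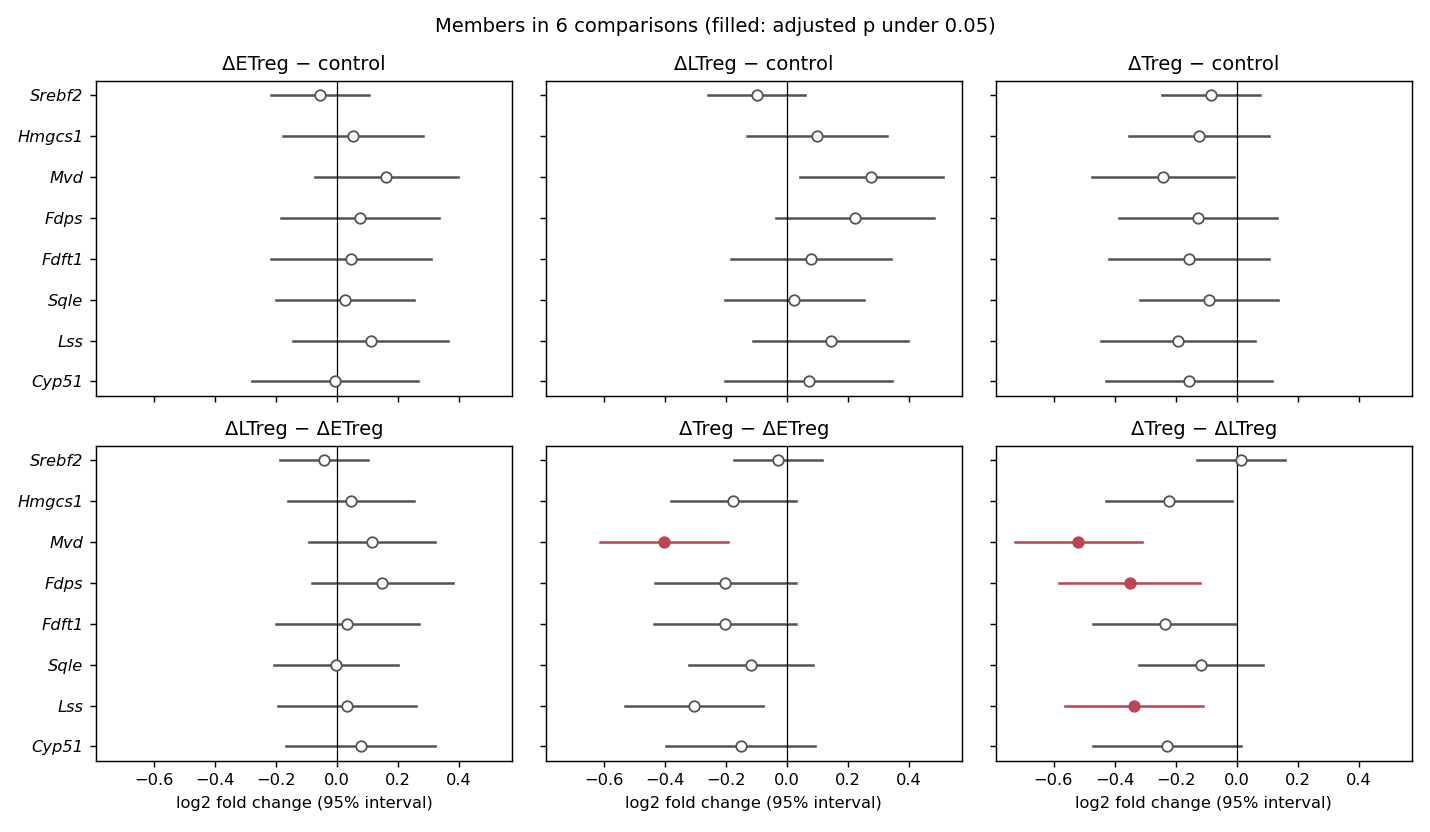
Log2 fold change (x axis) of the 8 members in 6 comparisons of groups, with 95% intervals from the edgeR fit, where filled red points mark an adjusted p under 0.05. Filled points occur for Mvd in ΔTreg against ΔETreg skin and for Mvd, Fdps and Lss in ΔTreg against ΔLTreg skin, all under 0, and in none of the panels against control.

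Within groups, mice ranked the members in much the same way. Control mouse 1, ΔETreg mouse 2, ΔLTreg mouse 1 and ΔTreg mouse 1 were each the lowest of their group for 8 of 8 members, where they were lowest for 47.9, 31.3, 32.6 and 35% of all genes tested. Control mouse 2 and ΔTreg mouse 3 were the highest for 8 of 8, and ΔLTreg mouse 3 for 7 of 8. With libraries scaled by their size alone, ΔLTreg mouse 1 was lowest for 7 of 8 members and the other 3 mice still for 8 of 8. For 13 other enzymes of the pathway the same mouse was lowest for 12 of 13 genes in control, 10 of 13 in ΔLTreg, 8 of 13 in ΔETreg and 8 of 13 in ΔTreg skin. The 7 enzymes summed to 869 and 1029 CPM in control, 962 to 997 in ΔETreg, 871 to 1136 in ΔLTreg mice and 796 to 913 in ΔTreg skin. In such bulk tissue, fewer cells of a type and less RNA per cell cannot be told apart.

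The other enzymes of cholesterol synthesis analysed here gave 6 further calls between ΔTreg and ΔLTreg skin. Of 13 such enzymes tested, 6 were lower in ΔTreg skin and 0 higher, and 12 of 13 estimates were under 0 (median -0.29). Acat2, the acetoacetyl-CoA thiolase that feeds Hmgcs1, had 61.9, 68.4 and 66.3 CPM in ΔLTreg mice and 43.2, 50.7 and 51.1 in ΔTreg skin, a log2 fold change of -0.44 (edgeR adjusted p = 0.0202). Msmo1 and Nsdhl, which remove the methyl groups at carbon 4 of the sterol ring, had -0.41 (edgeR adjusted p = 0.0121) and -0.37 (0.0195), and Erg28, a scaffold for those enzymes, had -0.29 (0.0415). The mevalonate kinases Mvk and Pmvk, which act just before Mvd, had -0.38 (edgeR adjusted p = 0.0112) and -0.35 (0.00527). Pmvk had 32.5, 34.2 and 33.0 CPM in ΔLTreg mice and 27.2, 26.8 and 23.99 in ΔTreg mice, with 28.1 and 32.2 in control, and the ΔTreg mice lay under all 8 others. Mvk and Pmvk were called against ΔLTreg skin with each of the 11 mice left out. Without ΔTreg mouse 1 these were the 2 enzymes of the 13 still called, beside 10.8% of all genes. Of the 13, 8 were called without control mouse 1 and again without control mouse 2, beside 17.6% of all genes each time. Without ΔLTreg mouse 1, 7 of the 13 were called, beside 16.1% of all genes, and without ΔLTreg mouse 3, 4 were, beside 15.6%.

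In pathway order, 1 of 2 enzymes up to mevalonate, 4 of 6 from mevalonate to squalene, 1 of 2 from squalene to lanosterol and 3 of 10 from lanosterol to cholesterol were called lower in ΔTreg against ΔLTreg skin. Members included, these were 9 of 20, or 45%, beside the 6.11% of all genes called lower. Since the genes were chosen with earlier results of these data known, these shares are a description and not a test of the pathway. Dhcr7, which reduces the sterol ring in one of the last steps, was not among them (-0.12, edgeR adjusted p = 0.268). Lbr, a lamin receptor that also has sterol reductase activity, had an estimate above 0 (0.09, edgeR adjusted p = 0.373). Against ΔETreg skin 7 of 20 enzymes were called lower in ΔTreg skin, Mvd being the 1 member among them, beside 9.81% of all genes, and for 18 of 20 the ΔTreg mice lay under all ΔETreg mice, beside 21.7% of all genes. The 7 became 15 in DESeq2 and in edgeR on these 2 groups alone, and with single mice left out they ranged from 3, without ΔTreg mouse 1 or without ΔETreg mouse 1, to 11, without ΔLTreg mouse 1. Against control 19 of 20 estimates were under 0, and of the 13 other enzymes 0 were called by edgeR or DESeq2 and 4 had an unadjusted p under 0.05. Without control mouse 1, 6 of the 13 were called against control, beside 18.4% of all genes. Without control mouse 2, 0 were, beside 10.5% of all genes. The single call between ΔLTreg and ΔETreg skin was Lbr, named after its values were seen, which was lower in ΔLTreg skin at 117.2 ± 10.6 CPM against 142.8 ± 6.89 (SD, n = 3 each, log2 fold change -0.29, edgeR adjusted p = 0.0232). Lbr was not called without ΔETreg mouse 1 or 3, without ΔLTreg mouse 2, or in edgeR on the 2 groups alone.

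**Figure D3:**
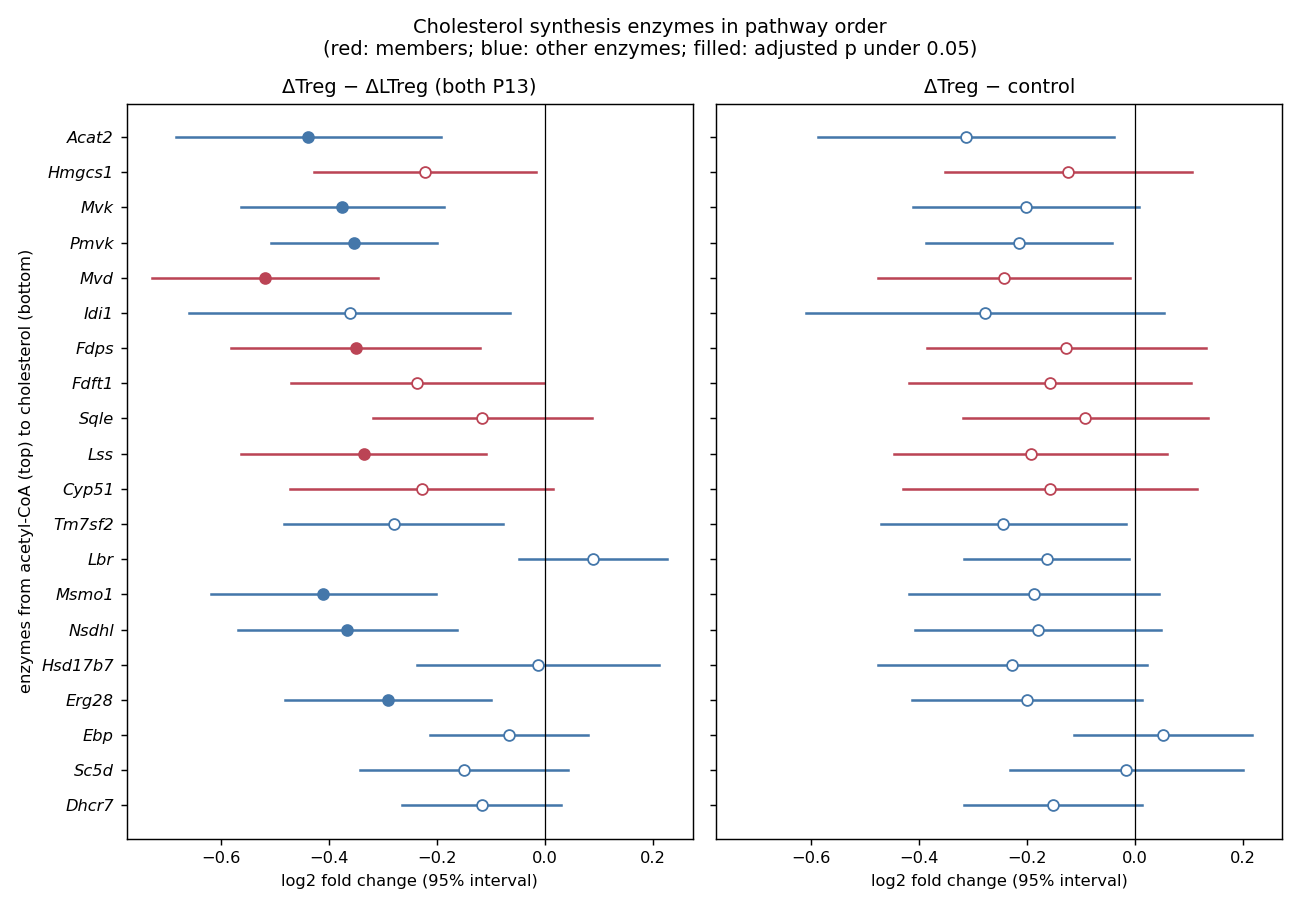
Log2 fold change with 95% interval (x axis) for 20 enzymes from acetyl-CoA at the top to cholesterol at the bottom, in ΔTreg against ΔLTreg skin on the left and against control on the right. Members are red, other enzymes blue, and filled points have an adjusted p under 0.05; 9 are filled on the left and 0 on the right, and 19 of 20 points lie under 0 in each panel.

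Regulators and other targets of SREBP2 gave few calls. Where edgeR called 21.5% of all genes tested, 1 of 9 such genes was lower in ΔTreg skin against control. This was Mbtps1, the protease that makes the first cut in SREBP release (-0.24, edgeR adjusted p = 0.00684), and without control mouse 2 it was not called (-0.22, edgeR adjusted p = 0.0570). Mbtps2, which makes the next cut, had -0.16 (edgeR adjusted p = 0.0908). Against ΔLTreg skin, where edgeR called 16.8% of all genes tested, 0 of the 9 were called by edgeR and 1 by DESeq2. Of the 9, 1 had an unadjusted p under 0.05, and the median log2 fold change was -0.09. Insig1, a sterol sensor that retains SREBP, had -0.03 (standard error 0.139), the SREBP escort Scap 0.03 (0.0471), the sterol carrier Stard4 -0.09 (0.0816) and Srebf1, the lipogenic paralogue of Srebf2, -0.11 (0.0636). In the branch of the mevalonate pathway that leaves at Fdps for dolichol, ubiquinone and prenyl groups, 1 of 11 genes was called lower against ΔLTreg skin, beside 6.11% of all genes. It was Fnta, a farnesyltransferase subunit (-0.19, edgeR adjusted p = 0.0230, and between 0.00786 and 0.0771 with single mice left out). Without ΔLTreg mouse 1, where 16.1% of all genes were called, 2 of the 11 were called lower. Without ΔLTreg mouse 3, where 15.6% were, the call was lost. Against control 1 of the 11 was called higher and 1 lower. In both comparisons DESeq2 called 0 of the 11, and 5 had an unadjusted p under 0.05 in edgeR against control and 2 against ΔLTreg skin.

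In ΔTreg against ΔLTreg skin, 7 of 12 genes of fatty acid synthesis, which SREBP1 controls, were called lower, beside 6.11% of all genes. Their median log2 fold change was -0.52 over the 12 genes. The count was 10 without ΔLTreg mouse 1, 6 without ΔLTreg mouse 3 and 8 in DESeq2. Against control 3 of the 12 were called lower, and 6 in DESeq2, where edgeR called 21.5% of all genes tested. Elovl6, an elongase of saturated fatty acids, had 549 and 635 CPM in control, 680.4, 825 and 696 in ΔETreg, 701 to 886 in ΔLTreg mice and 347 to 401 in ΔTreg skin, where all 3 mice lay under the other 8 (log2 fold change against ΔLTreg -1.02, standard error 0.110, edgeR adjusted p = 0.00011). Acss2, which makes acetyl-CoA from acetate, had -0.68 (edgeR adjusted p = 0.000187), Scd1, the stearoyl-CoA desaturase, -0.50 (0.0327) and the fatty acid synthase Fasn -0.41 (0.0285). With single mice left out the adjusted p of the edgeR test reached 0.114 for Scd1, without ΔTreg mouse 3, and 0.0966 for Fasn, also without ΔTreg mouse 3, and stayed under 0.05 for Elovl6 and Acss2. The 12 genes summed to 2928 to 3464 CPM in control, 3383 to 3787 in ΔETreg, 3434 to 4317 in ΔLTreg mice and 2521 to 2771 in ΔTreg skin.

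Of 8 genes for cholesterol efflux and the sterol-sensing receptor LXR, 5 were called higher in ΔTreg skin against control, where 21.5% of all genes were called. Against ΔLTreg skin, where 16.8% of all genes were called, 3 of the 8 were higher. There 3 of the 8 estimates were under 0, and DESeq2 called 3 higher and 1 lower. Without ΔLTreg mouse 1, 3 were called higher and 1 lower, and without ΔLTreg mouse 3, 2 higher and 1 lower. The 8 genes summed to 5061 to 5346 CPM in control and 4547 to 5469 in ΔETreg skin. The sum was 8546 to 10359 in ΔLTreg and 7760 to 7829 in ΔTreg skin, and so lower in ΔTreg skin. Most of this sum was Apoe, named after its values were seen, with 115368 to 329210 counts per library beside at most 8851 for Abca1. The mean centred log2 level of the 8 genes went the other way, at 0.19 to 0.23 in ΔTreg and 0.04 to 0.16 in ΔLTreg skin. The cholesterol transporter Abca1 had 178 and 164 CPM in control, 162 to 181 in ΔETreg, 214 to 236 in ΔLTreg mice and 252 to 265 in ΔTreg skin (log2 fold change of ΔTreg against ΔLTreg 0.20, standard error 0.0608, edgeR adjusted p = 0.0467), and Abcg1, another sterol transporter, had 0.65 (standard error 0.162, edgeR adjusted p = 0.0192). Without ΔTreg mouse 1 neither was called (edgeR adjusted p = 0.157 and 0.0807). Mylip, an LXR-induced ubiquitin ligase, had 0.06 (standard error 0.0556). Ch25h, an interferon-induced sterol hydroxylase whose product holds back SREBP processing, was rare, with 10 and 5 counts in control, 10, 18 and 9 in ΔETreg and 10, 8 and 7 in ΔLTreg mice and 217, 157 and 158 in ΔTreg mice. Its groups did not overlap, and its log2 fold change against ΔLTreg was 4.48 (standard error 0.358, edgeR adjusted p = 1.54e-05). Cyp27a1, another sterol hydroxylase, had 0.46 (edgeR adjusted p = 0.0379, and up to 0.109 with single mice left out). Of the 8 genes for oxysterols and cholesterol esters that include these, 5 were called higher and 1 lower against control, and 3 higher and 1 lower against ΔLTreg skin, where 2 were higher without ΔLTreg mouse 3.

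Markers of several cell types differed between the groups as well. The counts below stand beside 16.8% of all genes tested that edgeR called in ΔTreg against ΔLTreg skin, and 21.5% against control. Sebaceous gland genes were lower in ΔTreg than in ΔLTreg skin for 5 of 10 genes, among them Scd3 (-1.14, edgeR adjusted p = 0.000652) and the wax synthase Awat2 (-0.80, 0.00257), and for 3 of 10 against control. The list was not uniform, with 7 of 10 estimates under 0 against ΔLTreg skin and 8 of 10 against control. In both comparisons edgeR called 0 higher, while DESeq2 called 4 lower and 1 higher against control. The 10 genes summed to 1777 to 1973 CPM in ΔTreg, 1805 to 2197 in ΔLTreg, 1603 to 1904 in ΔETreg and 1673 to 1866 in control skin, so that the summed level overlapped while the mean centred log2 level did not (-0.40 to -0.17 in ΔTreg and -0.01 to 0.31 in ΔLTreg skin). Of 12 interferon-stimulated genes 12 were called higher in ΔTreg skin against control and 10 against ΔLTreg, with sums of 754 to 1105 CPM in ΔTreg, 111 to 222 in ΔLTreg, 76.3 to 97.3 in ΔETreg and 63.5 to 112 in control skin. T cell markers were higher for 7 of 8 genes in both comparisons (48.4 to 59.3 CPM summed in ΔTreg and 10.6 to 16.4 in the other groups), and macrophage and monocyte markers for 6 of 7 against ΔLTreg (361 to 489 CPM against 86.6 to 203). Of 7 basal keratinocyte genes 1 was called higher and 1 lower against ΔLTreg skin, and their sums overlapped (9744 to 10030 and 8792 to 10268 CPM). Cell cycle genes were lower for 7 of 8 against control and overlapped between ΔTreg (797 to 862 CPM) and ΔLTreg skin (799 to 905 CPM). Melanocyte genes were lower in ΔTreg skin for 6 of 6 genes in both comparisons (702 to 732 CPM summed in ΔTreg and 1050 to 1231 in ΔLTreg skin). Of the remaining lists, 3 of 13 barrier lipid genes were called higher against ΔLTreg, 0 of 8 suprabasal keratinocyte genes were called by edgeR (1 at an unadjusted p under 0.05, and 2 lower in DESeq2), 0 of 7 hair genes (0 unadjusted and 0 in DESeq2), 1 of 6 dermal fibroblast genes higher (4 unadjusted, and 1 higher in DESeq2), 3 of 6 skeletal muscle genes lower (5 unadjusted, and 2 in DESeq2), and 1 of 5 endothelial genes higher with 3 lower. Of 6 adipocyte genes 1 was called lower by edgeR and 5 by DESeq2, 5 had an unadjusted p under 0.05, and the median log2 fold change was -1.67, with sums of 373 to 424 CPM in ΔTreg, 460 to 561 in ΔLTreg, 355 to 426 in ΔETreg and 382 to 475 in control skin. Without ΔLTreg mouse 1 the edgeR call of the adipocyte list was lost, 3 basal keratinocyte genes were called higher and 1 lower, and 1 cell cycle gene, 1 suprabasal gene and 1 barrier lipid gene were called lower. Without ΔLTreg mouse 3, 2 adipocyte and 2 fibroblast genes were called lower. The part of these cell types in the member values was not tested.

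**Figure D4:**
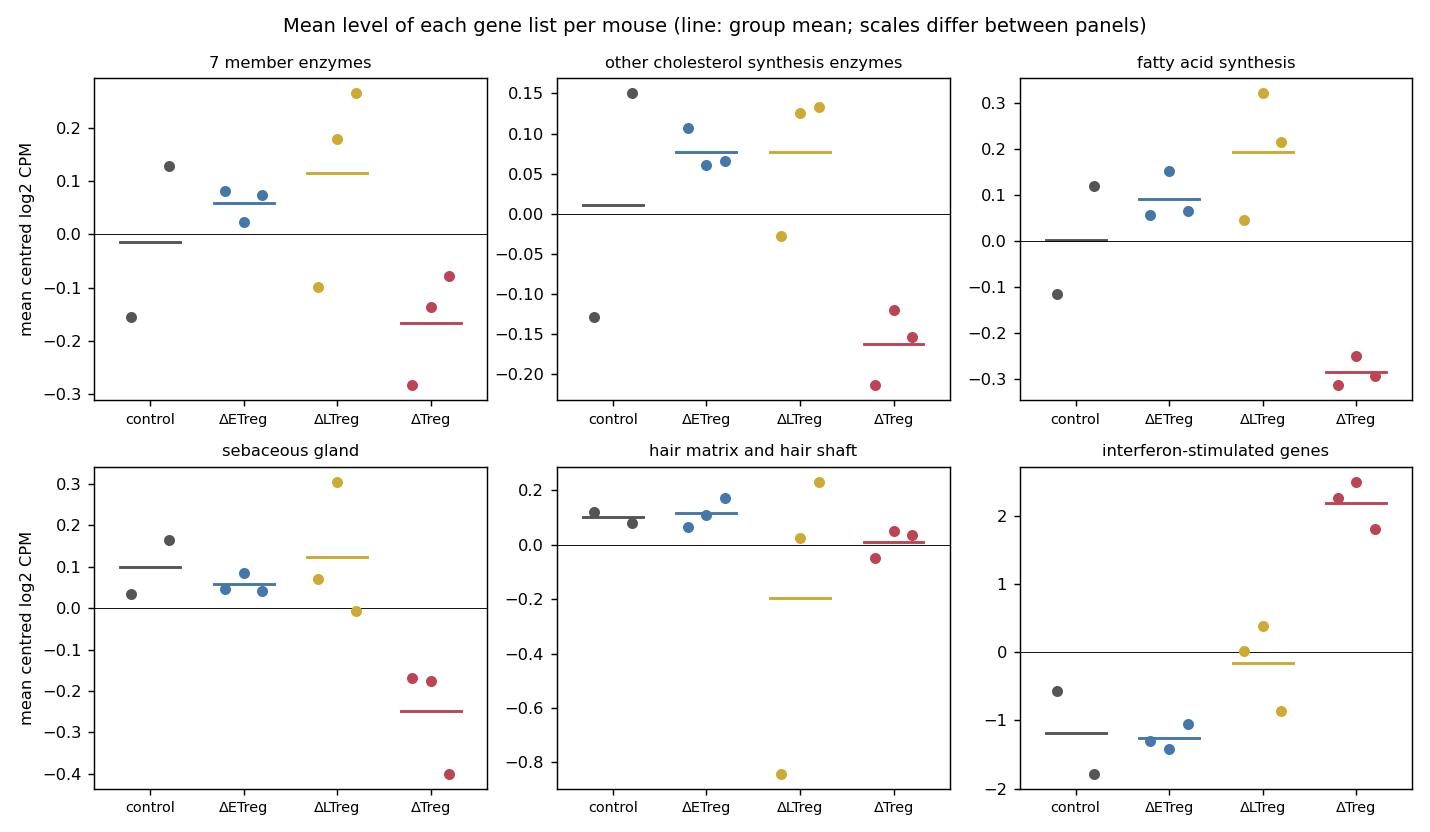
Mean centred log2 CPM of 6 gene lists (y axis, scale set per panel) for each of the 11 mice, with a line at each group mean. ΔTreg mice lie lowest for fatty acid synthesis and sebaceous gland genes and highest for interferon-stimulated genes, while for the other cholesterol enzymes they overlap with control mouse 1, and for the 7 member enzymes with control mouse 1 and ΔLTreg mouse 1, the mouse that lies far under the rest for hair genes.

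The genes whose pattern over the 11 mice was most like the mean of the 8 members were not sterol enzymes. Among 13889 genes with a mean count of at least 50, the 5 nearest by Pearson r of log2 CPM were Bdh1, a ketone body dehydrogenase (r = 0.962, Spearman's rho 0.973), the histone chaperone Hira (0.956, 0.909), the chromatin remodeller Smarca5 (0.952, 0.936), the tubulin Tubb6 (0.95, 0.964) and the mitochondrial ribosomal protein Mrps5 (0.949, 0.973). These values are a description, since the genes were picked for them and every point shares its library with the members. Without the 2 mice farthest from the median of the member mean, ΔTreg mouse 1 and ΔLTreg mouse 3, r was 0.934, 0.948, 0.917, 0.947 and 0.921. Of the 5, Bdh1 was called lower in ΔTreg against ΔLTreg skin (log2 fold change -0.29, edgeR adjusted p = 0.0494).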

How the data were processed

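RNA from 4 mm skin biopsies of 11 Foxp3-DTR mice was sequenced as 150 bp paired-end reads. The authors trimmed reads with Trimmomatic 0.36, aligned them to GRCm38 with STAR 2.5.2b and deposited raw counts per gene of uniquely mapped reads in exons from featureCounts (Subread 1.5.2); the strand setting and annotation release are not given in the sources used here, so antisense partners cannot be separated. The 49315 genes of the table include 174 without a name, which were tested but not named here. Each library was 1 mouse; the labels carry no litter or pairing, and all libraries share 1 batch label.

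Counts were scaled by TMM and fitted in edgeR 4.0.16 (R 4.3.3, limma 3.58.1) with 1 mean per group (4 groups, 11 libraries in 1 fit), after filterByExpr, which left 18375 genes. Contrasts were tested by the quasi-likelihood F test, adjusted by Benjamini-Hochberg over every gene tested, and called at an adjusted p under 0.05. Levels are TMM-scaled CPM; 95% intervals come from the fit and its moderated degrees of freedom. Depth of 23377571 to 34159435 counts gave every member at least 860 counts per library. The part of counting in the spread of the members within each group was not tested. Scripts were tested on simulated data. Alternatives were the DESeq2 1.42.0 Wald test, the fit on the compared groups alone, DESeq2 size factors, library size alone, no filter, at least 10 counts in every library, and leaving out each mouse. The members and the other gene lists were chosen with earlier results of these data known. Named were every member, the other pathway enzymes called in ΔTreg against control or ΔLTreg skin, 10 sterol and lipid genes whatever their values, the 2 genes with the smallest p against control of each other list, and the 5 genes most like the members. Some genes of the rule and of the lists are not reported here and were left out of the list counts. Promoter sequences are from RefSeq (GRCm38.p6), gene positions and exon lengths from GENCODE M21 (GRCm38).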

Additional observations from a re-analysis of the deposited data

How the results depend on the processing

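No paired analysis was possible because each library is a separate mouse and the labels give no litter or pairing. Leaving out each mouse in turn gave 1 to 6 members called in ΔTreg against ΔLTreg skin, 1 to 2 against ΔETreg skin, 0 to 1 against control, and 0 to 1 in ΔLTreg against control skin, with 6 reached without ΔLTreg mouse 1. For the other 13 enzymes the ranges were 2 to 8 against ΔLTreg skin and 0 to 6 against control, with 6 reached without control mouse 1 and 0 without control mouse 2. With single mice of the 3 DT groups left out, 10.8 to 16.1% of all genes were called in ΔTreg against ΔLTreg skin. Against ΔETreg skin 16.6 to 26.4% were, against control 14.7 to 24.8%, and in ΔLTreg against control skin 3.27 to 4.96%. Without control mouse 1, and again without control mouse 2, 17.6% of all genes were called in ΔTreg against ΔLTreg skin. Against ΔETreg skin the shares without control mouse 1 and without control mouse 2 were 23.2 and 23%. In ΔTreg against control skin they were 18.4 and 10.5%, and in ΔLTreg against control skin 1.54 and 1.96%. With the edgeR fit on the 2 compared groups alone, 1 member was called in ΔTreg against ΔLTreg skin (14.7% of all genes) and 5 against ΔETreg skin (30.7%). With the DESeq2 Wald test 5 members were called against ΔETreg skin (21.3%). Without a filter the numbers of members were 6 against ΔLTreg skin (10.4% of all genes), 2 against ΔETreg skin (12.2%) and 1 in ΔLTreg against control skin (5.01%). With library size alone 2 members were called against ΔETreg skin (22.9%). Of the other enzymes, 1 was called in ΔTreg against control skin with the 2 groups alone (Lbr, beside 22.4% of all genes). Without a filter 1 was called there (Acat2, beside 11.6%). The causes were not tested. Over the 8 members in 6 comparisons, 41 to 47 log2 fold changes kept both their direction and their side of the threshold under each of the 6 settings. Mvd was called in ΔTreg against ΔLTreg and ΔETreg skin under all 6 of these settings and with each of the 11 mice left out.

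Estimates near 0 changed sign. Srebf2 had -0.0099 in ΔTreg against ΔLTreg skin with library size alone, and Cyp51 in ΔETreg against control skin had 0.0036 with the 2 groups alone, 0.029 with library size alone, 0.0021 without a filter and 0.0055 with at least 10 counts in every library. The following ranges are over single mice left out. In ΔETreg against control skin, the log2 fold changes that took both signs ranged over Srebf2 -0.14 to 0.026, Hmgcs1 -0.024 to 0.13, Mvd -0.029 to 0.38, Fdps -0.048 to 0.21, Fdft1 -0.12 to 0.23, Sqle -0.10 to 0.17, Cyp51 -0.17 to 0.18. In ΔLTreg against control skin, the log2 fold changes that took both signs ranged over Fdft1 -0.083 to 0.26, Sqle -0.11 to 0.17, Cyp51 -0.095 to 0.26. In ΔTreg against control skin, the log2 fold changes that took both signs ranged over Fdft1 -0.32 to 0.018, Sqle -0.22 to 0.043, Cyp51 -0.32 to 0.022, Msmo1 -0.37 to 0.015, Insig1 -0.26 to 0.035, Srebf1 -0.053 to 0.20, Stard4 -0.25 to 0.021. In ΔTreg against ΔLTreg skin, the log2 fold changes that took both signs ranged over Srebf2 -0.028 to 0.063, Insig1 -0.20 to 0.12, Scap -0.0072 to 0.055, Flg -0.20 to 0.041, Krt35 -0.27 to 0.10, Lipe -0.022 to 0.19. In ΔLTreg against ΔETreg skin, the log2 fold changes that took both signs ranged over Hmgcs1 -0.051 to 0.15, Fdft1 -0.054 to 0.13, Sqle -0.098 to 0.091, Lss -0.071 to 0.15, Cyp51 -0.025 to 0.19.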
